A study of Drosophila melanogaster with 6 samples.

Results

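Transcripts of 10 genes of fatty acid and lipid synthesis were examined in whole Drosophila melanogaster larvae that expressed a histone acetyltransferase (HAT) defective form of the chromatin regulator Tip60. The genes were chosen by name for their place in the pathway, with earlier results of these data known. Each was read from the probe set whose platform annotation gives that gene symbol and no other. All 10 had exactly 1 such probe set, so that 10 of the 18769 probe sets tested, or 10 of the 11982 genes with a single-symbol probe set, are described here. Larvae of 3 genotypes were compared: dTIP60E431Q, in which the HAT domain of Tip60 carries the substitution E431Q, dTIP60WT, which carries an additional wild type copy of Tip60, and the w1118 control. All 3 were progeny of virgin females crossed to males of the GAL4-337 line, which expresses GAL4 ubiquitously, so the driver is common to every array, while the control carries no UAS transgene. Larvae were 3 days old, raised at 25°C, and each genotype gave 2 pools of 35 larvae, each hybridized to its own Affymetrix Drosophila Genome 2.0 array. Each transgene was represented by a single insertion line, and endogenous Tip60 was present in all 3 genotypes. By the methods, dTIP60E431Q larvae die late in the second instar and were collected before that point.

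Fatty acids are built from acetyl units. Acetyl-CoA is made from citrate by ATP citrate lyase (ATPCL) or from acetate by acetyl-CoA synthetase (AcCoAS), acetyl-CoA carboxylase (ACC) turns it into malonyl-CoA in the committed step, and fatty acid synthase condenses these units with NADPH into long saturated chains. Drosophila has 3 synthase genes: FASN1 is the general form, prominent in the fat body, the organ that combines the roles of liver and adipose tissue, while FASN2 and FASN3 are known from oenocytes, subepidermal cells that make very long chain and cuticular lipids. Desat1 introduces the first double bond, and midway (mdy), a diacylglycerol acyltransferase, completes triacylglycerol. SREBP, a membrane-bound transcription factor of lipid synthesis genes, is escorted by SCAP to the Golgi, where proteases release its active part. Whole-larva RNA cannot tell fewer cells of a type from less RNA per cell, which holds for every value below.

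FASN1, FASN3 and ACC fell in dTIP60E431Q larvae, while the suppliers of acetyl-CoA, FASN2, Desat1, mdy, SREBP and SCAP did not pass the test. Values are linear intensities on which the authors had already normalized the arrays, and changes are differences of mean log2 intensity tested in limma over all probe sets, with a call made where the p after Benjamini-Hochberg adjustment was under 0.05. Of the 10 genes, 0 were called higher and 3 lower with dTIP60E431Q against the control. Over all probe sets 23.6% were called in this comparison, 11.9% higher and 11.7% lower. Counted with 1 probe set per gene, as for these 10, 28.4% of 11982 genes were called, 14.2% higher and 14.2% lower. A filter at the 40th percentile of mean level kept 9 of the 10 genes, and 3 were called, where 5568 of 11261 probe sets were. All 3 genes also differed at least 2-fold, where 14.4% of all probe sets were called with that limit added. The median log2 change of the 10 genes was -0.18, against 0.04 over all probe sets. With dTIP60WT against the control 0 of the 10 were called in limma or by any alternative setting run, and 0 reached an unadjusted p below 0.05. Over all probe sets 0.00533% were called there, a single probe set, that of Tip60 itself. With dTIP60E431Q against dTIP60WT, 2 of the 10 genes were called, both lower, where 24% of all probe sets were called, 12.2% higher and 11.7% lower. With 1 probe set per gene 28.9% of all genes were called there, 14.7% higher and 14.2% lower. The comparisons of dTIP60E431Q and of dTIP60WT with the control use the same control arrays, and both dTIP60E431Q comparisons use the same dTIP60E431Q arrays.

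**Figure D1:**
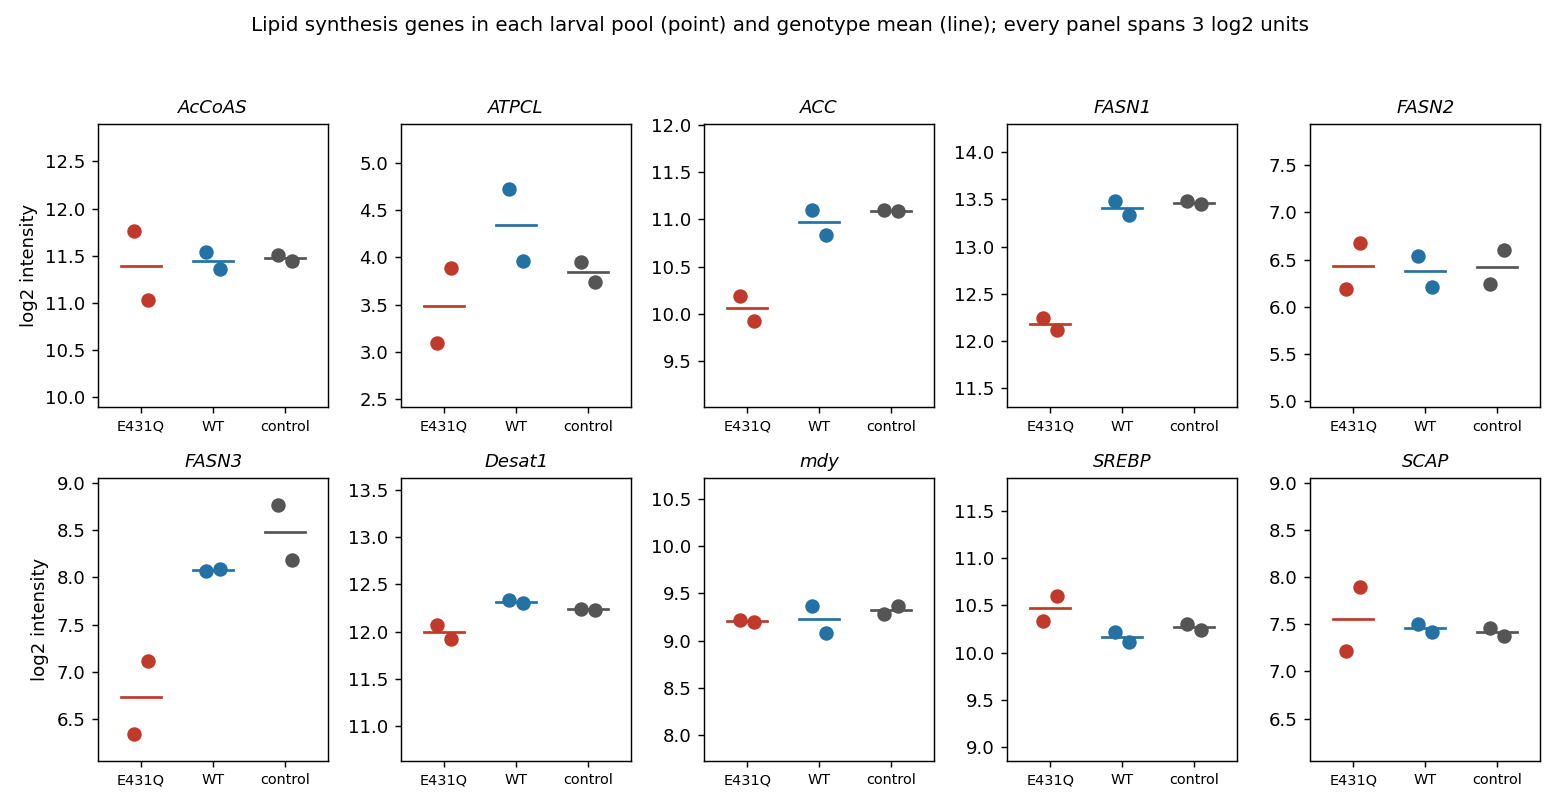
Log2 intensity (y axis) of the 10 lipid synthesis genes in larvae with dTIP60E431Q (E431Q), dTIP60WT (WT) and the w1118 control (x axis), with 1 point per larval pool and a line at the mean of 2 pools; each panel spans 3 log2 units. For FASN1, FASN3 and ACC both dTIP60E431Q points lie below all 4 other points, while for FASN2, AcCoAS and SCAP the genotypes overlap.

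The transgene itself was read by the Tip60 probe set. Its intensity was 5172 and 5464 with dTIP60E431Q, 3045 and 2755 with dTIP60WT, and 30.8 and 29.2 in the control. Array medians were 51.5 and 51.9 with dTIP60E431Q, 43.8 and 45.2 with dTIP60WT, and 44.4 and 43.6 in the control. Of all values 1.37% were exactly 1, near the low end of the scale, with a lowest value of 0.69. Scaling the arrays to a common median shifted the log2 changes of dTIP60E431Q against the control by -0.23, and quantile normalization moved the log2 change of a probe set by a median of -0.11. The share of calls that were higher was 50.5% as deposited and 32.8% after median scaling. FASN1, FASN3 and ACC were called lower under both, with log2 changes of -1.52, -1.98 and -1.27 after median scaling and -1.001, -1.89 and -1.03 after quantile normalization. In whole larvae every tissue contributes, and each of 6 tissues had markers measured, with only 1 neuronal marker (nSyb) at 1 on an array. A single-symbol probe set was found for 5 of 8 listed fat body, 7 of 8 oenocyte and 9 of 9 midgut markers. It was found for 5 of 9 muscle, 6 of 7 neuron and 5 of 5 hemocyte markers.

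Neither gene that supplies acetyl-CoA passed the test. AcCoAS had intensities of 3463 and 2098 with dTIP60E431Q, 2972 and 2623 with dTIP60WT, and 2904 and 2795 in the control. The dTIP60E431Q pools lay on either side of all 4 other pools, 1.65-fold apart, whereas the control pools were 1.04-fold apart. The log2 change of AcCoAS was -0.08 against the control (95% confidence interval -0.81 to 0.65, limma, adjusted p = 0.864). ATPCL was dim, with intensities of 8.56 and 14.8 with dTIP60E431Q, 26.5 and 15.6 with dTIP60WT, and 15.4 and 13.3 in the control, and its mean lay at the 26.7th percentile of all probe sets. At this signal its log2 change of -0.35 has an interval of -1.40 to 0.69 (adjusted p = 0.570), and a 2-fold fall was not detectable. The probe sets of ATPCL, SREBP, Desat1 and mdy carry the suffix by which Affymetrix marks probes that match several transcripts, and whether any match other genes was not tested.

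ACC, the enzyme of the committed step, fell with dTIP60E431Q against both other genotypes. Its intensities were 1171 and 970.0 with dTIP60E431Q, 2190.4 and 1831 with dTIP60WT, and 2195 and 2171 in the control. Both dTIP60E431Q pools lay below all 4 others, and dTIP60WT and control overlapped. The mean was 1071 ± 142 with dTIP60E431Q, 2011 ± 254 with dTIP60WT and 2183 ± 17.0 in the control (SD, n = 2 each). ACC was 2.05-fold lower with dTIP60E431Q than in the control (log2 change -1.03, SE 0.17, interval -1.48 to -0.59, limma, adjusted p = 0.0197) and lower by a log2 change of -0.91 than with dTIP60WT (adjusted p = 0.0254). The call against the control was lost without either dTIP60E431Q array (adjusted p = 0.0548 without replicate 1 and 0.0753 without replicate 2) or either control array (0.0936 and 0.0865), with changes of -1.17 to -0.90. The call against dTIP60WT was lost without any 1 of the 6 arrays (adjusted p from 0.0585 to 0.106) and with only the 4 arrays of that comparison fitted (0.0624).

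FASN1, the general fatty acid synthase, fell with the smallest standard error of the 3 called genes. The intensity was 4865 and 4430.5 with dTIP60E431Q, 11461 and 10362.5 with dTIP60WT, and 11413 and 11227 in the control. The dTIP60E431Q pools were 1.10-fold apart and both lay far below the other 4 pools, which overlapped. FASN1 was 2.44-fold lower with dTIP60E431Q than in the control (log2 change -1.29, SE 0.13, interval -1.63 to -0.94, limma, adjusted p = 0.00835) and 2.35-fold lower than with dTIP60WT (log2 change -1.23, adjusted p = 0.00775). With dTIP60WT against the control its log2 change was -0.05, with an interval of -0.40 to 0.29 (adjusted p = 1). Without control replicate 1 the fall against the control kept its size, at -1.27, with an adjusted p = 0.0549, and without dTIP60WT replicate 1 or 2 the fall against dTIP60WT was -1.16 or -1.30 with an adjusted p = 0.0547 or 0.0509.

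FASN3, a synthase known from oenocytes, had the lowest fitted log2 change of the 10 genes and pools far apart. Its intensity was 81.2 and 139 with dTIP60E431Q, 268 and 273 with dTIP60WT, and 437 and 291 in the control. Both dTIP60E431Q pools were lowest, both dTIP60WT pools came between, and both control pools were highest. FASN3 was 3.36-fold lower with dTIP60E431Q than in the control (log2 change -1.75, SE 0.34, interval -2.67 to -0.83, limma, adjusted p = 0.0304). This call was lost when any 1 of the 6 arrays was left out, with adjusted p from 0.0514 without dTIP60E431Q replicate 2 to 0.118 without control replicate 1, and changes from -2.13 to -1.36. It was also lost with only the dTIP60E431Q and control arrays fitted (adjusted p = 0.0718) and with a replicate block (0.0693). Against dTIP60WT the log2 change of -1.35 did not pass (adjusted p = 0.0554), although it passed after quantile normalization (0.0377), median scaling (0.0339), a pseudocount of 16 (0.0192), a filter on dim probe sets (0.0168) and eBayes with trend and robust options (0.0127). With dTIP60WT against the control the log2 change of FASN3 was -0.40 (interval -1.32 to 0.52, adjusted p = 1).

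FASN2, which lies next to FASN1 on the same chromosome arm with 0 annotated genes in the gap between them in the Release 6 gene table, did not pass the test in any comparison. It had intensities of 73.2 and 103 with dTIP60E431Q, 92.8 and 74.3 with dTIP60WT, and 75.4 and 96.8 in the control. In each genotype one pool was high and the other low, and all 3 ranges overlapped. The log2 change was 0.02 with dTIP60E431Q against the control (interval -0.66 to 0.70, limma, adjusted p = 0.966) and -0.04 with dTIP60WT against the control (interval -0.72 to 0.64, adjusted p = 1). The change with dTIP60E431Q against the control was -0.21 after median scaling and -0.15 after quantile normalization.

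The fat body type synthase was then set against the oenocyte type synthases by their changes on the same arrays. The log2 change of FASN1 with dTIP60E431Q against the control was lower than that of FASN2 by -1.31 (SD 0.37 of the within-array difference within genotypes), and the within-array differences of both dTIP60E431Q pools lay below those of both control pools. Against FASN3 the same quantity was 0.46 (SD 0.53), and the pools overlapped. With dTIP60E431Q against dTIP60WT these differences were -1.29 for FASN2, where the pools did not overlap, and 0.12 for FASN3, where they did. With dTIP60WT against the control they were -0.01 and 0.34. An exact permutation test, 2-sided, over 2 against 2 arrays cannot give a p below 0.333, and it gave 0.333 for both non-overlapping cases and 0.667 or 1 for the other 4, with all 6 at 1 after Benjamini-Hochberg adjustment. These p-values could not pass a threshold of 0.05 at this number of arrays and say nothing on whether the synthases differed in response. The difference between FASN2 and FASN3 was not tested.

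**Figure D2:**
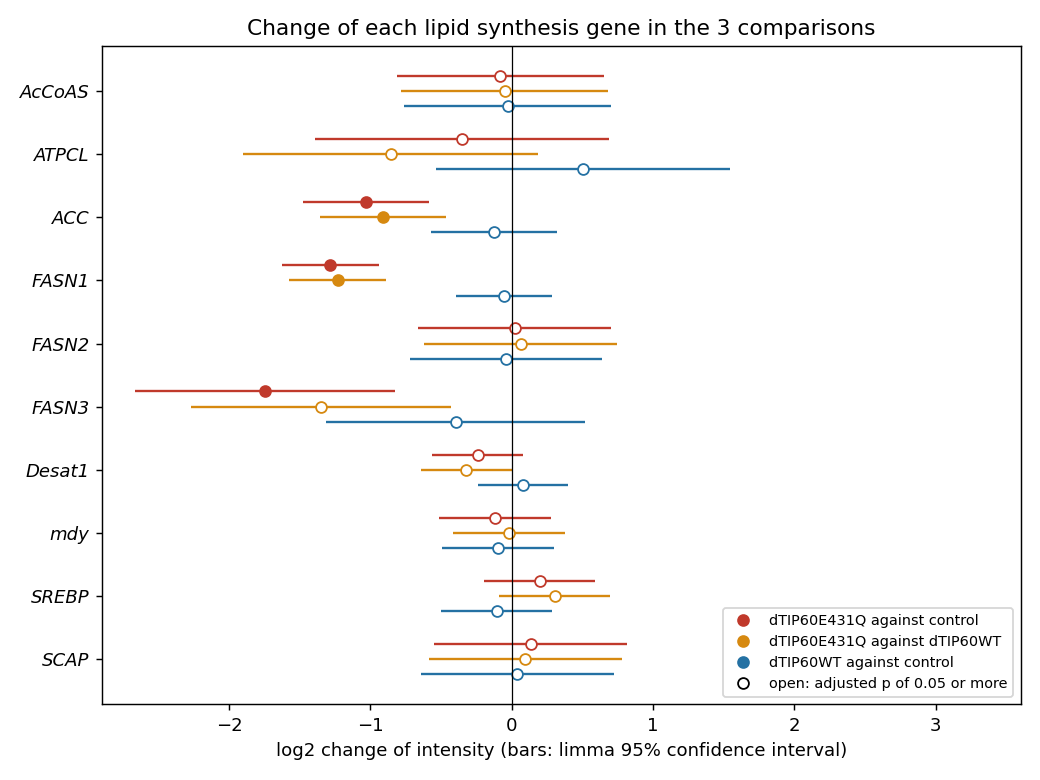
Log2 change of intensity (x axis) of each lipid synthesis gene (y axis) with dTIP60E431Q against the control, dTIP60E431Q against dTIP60WT, and dTIP60WT against the control, with limma 95% confidence intervals as bars and filled points at an adjusted p below 0.05. Filled points appear for ACC and FASN1 in both dTIP60E431Q comparisons and for FASN3 against the control, and none appears for dTIP60WT against the control.

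Desat1 and mdy, which act downstream of the synthase, did not pass the test. Desat1 had intensities of 4290 and 3890 with dTIP60E431Q, 5172 and 5039 with dTIP60WT, and 4843 and 4815 in the control. The order of the genotypes was dTIP60E431Q, control and dTIP60WT from low to high, with no overlap, yet the steps were small. The log2 change was -0.24 against the control (interval -0.56 to 0.08, limma, adjusted p = 0.226) and -0.32 against dTIP60WT (interval -0.64 to -0.0015, adjusted p = 0.132). With eBayes trend and robust options Desat1 passed in both (adjusted p = 0.0297 and 0.00739), and against dTIP60WT also after median scaling (0.0462), with a floor at the 20th percentile (0.0293) and with the filter on dim probe sets (0.0460), whereas after quantile normalization the change against the control was 0.04. For mdy the intensities were 595 and 588 with dTIP60E431Q, 663 and 542 with dTIP60WT, and 625 and 660 in the control. Both dTIP60E431Q pools of mdy lay between the dTIP60WT pools and just below the control pools, with a log2 change of -0.12 against the control (interval -0.52 to 0.28, adjusted p = 0.619).

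The regulators SREBP and SCAP did not pass the test in any comparison. SREBP had intensities of 1296 and 1551 with dTIP60E431Q, 1195 and 1105 with dTIP60WT, and 1268 and 1206 in the control. Both dTIP60E431Q pools were the highest of the 6, by a small margin for replicate 1. The log2 change was 0.20 against the control (interval -0.20 to 0.59, limma, adjusted p = 0.399), and -0.04 after median scaling. SCAP had 148 and 237 with dTIP60E431Q, 181 and 171 with dTIP60WT, and 176 and 166 in the control. As with AcCoAS, the dTIP60E431Q pools enclosed the other 4, and the log2 change was 0.13 (interval -0.55 to 0.82, adjusted p = 0.749), or -0.10 after median scaling. Transcript levels of SREBP do not report how much of the protein is processed.

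The median absolute log2 gap between the 2 pools was 0.38 with dTIP60E431Q, 0.16 with dTIP60WT and 0.08 in the control for these genes, against 0.26, 0.23 and 0.23 over all probe sets. AcCoAS was higher in dTIP60E431Q replicate 1, and SCAP and FASN3 were higher in replicate 2, so the gap did not run one way. Of the 10 genes 1 was above and 5 were below the control with dTIP60E431Q, where the pools of 64.1% of all probe sets did not overlap, and 2 were above and 2 below with dTIP60WT, where 32.6% did not. Likewise 1 was above and 5 were below with dTIP60E431Q against dTIP60WT, where 63.7% did not overlap.

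Some markers of the fat body and of oenocytes also fell with dTIP60E431Q. Lsp2 and Fbp2, storage genes of the fat body, had intensities of 140 and 130, and 25.6 and 24.9, with dTIP60E431Q, 13420 and 13157, and 6784 and 5994, with dTIP60WT, and 15146 and 13517, and 9579 and 5458, in the control. These are log2 changes of -6.73 (limma, adjusted p = 0.00140) and -8.16 (adjusted p = 0.00415) against the control. The lipoprotein genes apolpp and apoLTP, also made by the fat body, had log2 changes of -0.42 (adjusted p = 0.0999) and -0.10 (adjusted p = 0.755). Fbp1 had 3.32 and 6.42 with dTIP60E431Q, 5.01 and 1015 with dTIP60WT, and 1329 and 7.09 in the control, so that pools of one genotype stood far apart. In all 0 of the 5 measured fat body markers were called higher and 2 lower, where 14.2% of all genes were called higher and 14.2% lower, and their summed intensity was 12963 and 11354 with dTIP60E431Q, 36318 and 34941 with dTIP60WT, and 41184 and 34973 in the control, with 0 markers at 1. Of 7 measured oenocyte markers 0 were called higher and 4 lower, to be read against the same shares over all genes. FarO, CG17560 and CG17562, which encode fatty acyl-CoA reductases, changed by -1.90, -2.77 and -2.08 (adjusted p = 0.00689, 0.00550 and 0.00798), and spidey, a reductase of the elongation cycle, by -0.92 (adjusted p = 0.0203). Cyp4g1, the P450 that makes cuticular hydrocarbons, had a log2 change of -0.34 (adjusted p = 0.220), the elongase gene bond 0.65 (adjusted p = 0.179) and CG4770 0.93 (adjusted p = 0.509). The summed intensity of the oenocyte markers, of which Cyp4g1 was the brightest on every array, was 4307 and 5363 with dTIP60E431Q, 5104 and 4802 with dTIP60WT, and 5309 and 5706 in the control, again with 0 markers at 1. Markers of other tissues moved as well. Of 5 measured muscle markers 0 were called higher and 3 lower (sls, bt and Tm2, with log2 changes of -1.30, -0.96 and -0.49, adjusted p = 0.0178, 0.0271 and 0.0444), and their summed intensity was 19500 and 20243 with dTIP60E431Q, 30587 and 26984 with dTIP60WT, and 29107 and 29981 in the control. Of 9 midgut markers 3 were called higher (alphaTry, Mal-A6 and Mal-A1, with log2 changes of 2.42, 1.53 and 1.33, adjusted p = 0.00566, 0.00809 and 0.00798) and 1 lower (Jon65Aiii, log2 change -0.67, adjusted p = 0.0271), and their summed intensity was 37202 and 40291 with dTIP60E431Q, 33929 and 39516 with dTIP60WT, and 32829 and 38518 in the control. Of 6 neuron markers 1 was called higher (Appl, log2 change 1.20, adjusted p = 0.0162) and 0 lower. Of 5 hemocyte markers 0 were called in limma, and 0 reached an unadjusted p below 0.05. The marker genes of muscle, midgut and neurons named here were picked after their values were seen. The part of any of these cell types in the falls of FASN1, FASN3 and ACC was not tested. Whether the genotypes had reached the same larval stage at 3 days was not tested either.

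**Figure D3:**
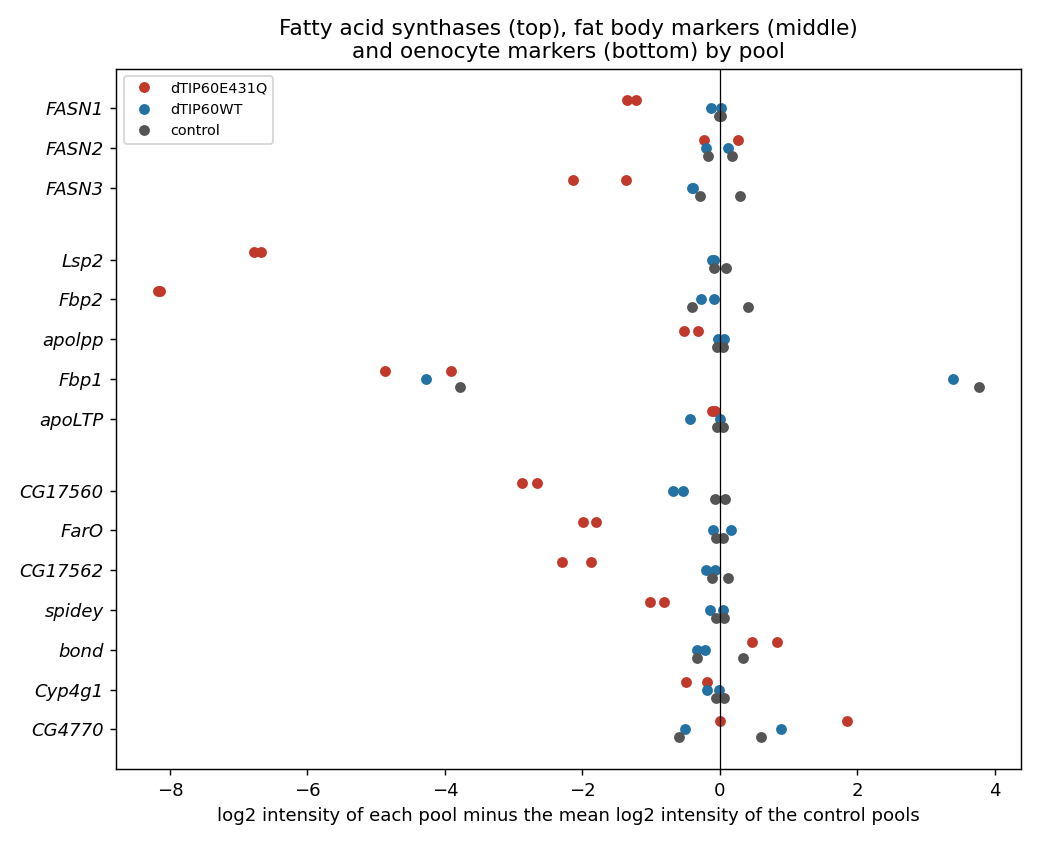
Log2 intensity of each pool minus the mean log2 intensity of the control pools (x axis) for the 3 fatty acid synthases, 5 fat body markers and 7 oenocyte markers (y axis), with dTIP60E431Q, dTIP60WT and control points in that order from top to bottom within each gene. Lsp2 and Fbp2 lie far to the left with dTIP60E431Q, apolpp, apoLTP and Cyp4g1 stay near 0, and the pools of Fbp1 are split in both dTIP60WT and the control.

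Genes whose levels followed the same course over the 6 arrays were named by Pearson's r of log2 intensity among 8153 probe sets with 1 gene symbol above the median level. Closest to FASN1 were Gnpnat, CG42336, SmF, Cyp310a1 and CG34290, each at an r above 0.999 over 6 arrays. Such likeness was common, since 19.8% of the probe sets compared reached 0.95 with FASN1. Gnpnat, which encodes an enzyme of N-acetylglucosamine synthesis, had intensities of 480 and 446 with dTIP60E431Q, 1468 and 1268 with dTIP60WT, and 1426 and 1401 in the control. Closest to FASN3 were Trax, CG17698, Tsf1, CG6276 and CG10512 (r from 0.995 to 0.999), and 3.97% reached 0.95. Tsf1, which encodes the iron carrier transferrin, had 415 and 655 with dTIP60E431Q, 1278 and 1179 with dTIP60WT, and 1871 and 1329 in the control, and so shared the gap between control pools as well. Closest to FASN2 were D19B, Opbp, fmt, CG31855 and Rme-8 (r from 0.967 to 0.978), with 7 probe sets at 0.95 or above. The arrays fall into 3 genotypes, so these values describe a shared course over few points and no test is given.

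Outside the 10 genes, 76 further genes of lipid synthesis were listed in 6 groups, also with earlier results of these data known. A single-symbol probe set was found for 68 of them. Of these, 18 rose and 12 fell with dTIP60E431Q against the control, counted at an adjusted p below 0.05 with 1 probe set per gene. With dTIP60E431Q against dTIP60WT 17 rose and 10 fell, where 28.9% of all genes were called. Among all 11982 genes counted in the same way 28.4% were called with dTIP60E431Q against the control, 14.2% higher and 14.2% lower. With a filter at the 40th percentile of mean level 34 of 64 listed genes were called, where 5568 of 11261 probe sets were. The median log2 change of the 68 genes was 0.02, against 0.03 for all genes. With any 1 array left out fewer of the 68 were called, as fewer of all probe sets were, so the count of 30 rests on all 6 arrays. With dTIP60WT against the control 0 of the 68 were called in limma, and 1 reached an unadjusted p below 0.05.

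**Figure D4:**
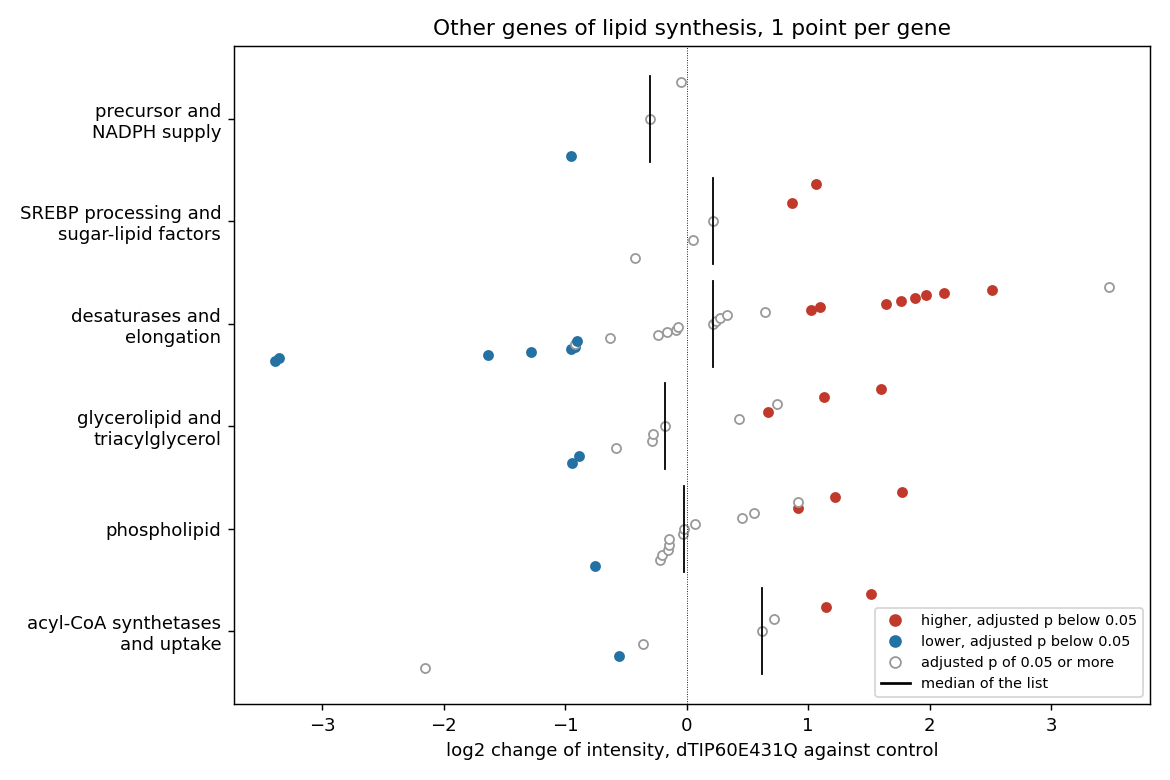
Log2 change with dTIP60E431Q against the control (x axis) of the other genes of lipid synthesis in 6 groups (y axis), with 1 point per gene, filled where the adjusted p was below 0.05, and a line at the median of each group. Desaturase and elongation genes spread furthest to both sides, with 8 filled points on the right and 7 on the left.

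In the supply of NADPH and precursors, Men-b, a malic enzyme, fell with ACC and FASN1. It had intensities of 1042 and 1079 with dTIP60E431Q, 2118 and 1904 with dTIP60WT, and 2067 and 2029 in the control (log2 change -0.95, limma, adjusted p = 0.0123), a call lost without any 1 of the dTIP60E431Q or control arrays. The other measured genes of this group, Idh and Men, which also yield NADPH, had log2 changes of -0.30 (adjusted p = 0.197) and -0.05 (adjusted p = 0.858), and 3 of the 6 listed genes were not analysed here. Among the proteases of SREBP and the sugar-responsive transcription factors of lipid synthesis, 2 of 5 rose, where 14.2% of all genes were called higher. The Mondo partner gene bigmax had 597 and 617 with dTIP60E431Q, 259 and 284 with dTIP60WT, and 278 and 302 in the control (log2 change 1.07, adjusted p = 0.0106), and sugarbabe (sug) rose by 0.86 (adjusted p = 0.0437). After median scaling or quantile normalization only 1 of the 5 was called, and it was higher, where 4719 and 4732 of 18769 probe sets were called. With any 1 array left out fewer of the 5 were called, as fewer were over all probe sets.

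Desaturase and elongation genes divided. Of 27 measured genes 8 rose and 7 fell, where 14.2% of all genes were called higher and 14.2% lower. The median log2 change was 0.22, against 0.03 for all genes. The counts were 7 and 7 after median scaling and 8 and 7 after quantile normalization. With any 1 array left out fewer of these genes were called, as fewer were over all probe sets. The elongase family genes CG8534 and CG9459 had the lowest log2 changes of the group. CG8534 had intensities of 31.4 and 30.7 with dTIP60E431Q, 286 and 326 with dTIP60WT, and 322 and 327 in the control (log2 change -3.38, limma, adjusted p = 0.00415). CG9459 changed by -3.35 (limma, adjusted p = 0.00550). It was dim, at 4.1 and 3.56 with dTIP60E431Q, 37.0 and 48.7 with dTIP60WT, and 35.4 and 42.9 in the control, so the size of its change rests on low signal. Elongase family genes went both ways. Chosen after their values were seen to complete the count, CG5326, CG18609, sit, CG31523 and Elovl7 rose, with log2 changes of 2.51, 1.97, 1.88, 1.09 and 1.02 (adjusted p = 0.0178, 0.0109, 0.0492, 0.0109 and 0.0201), and Elo68alpha, Elo68beta and CG6660 fell, with log2 changes of -1.63, -1.28 and -0.95 (adjusted p = 0.0165, 0.0148 and 0.0327). Hacd2 and spidey, of the elongation cycle, also fell, with log2 changes of -0.91 and -0.92 (adjusted p = 0.0172 and 0.0203). The desaturase family genes CG9747 and CG9743 rose. CG9747 had 799 and 769 with dTIP60E431Q, 169 and 153 with dTIP60WT, and 175 and 185 in the control (log2 change 2.12, adjusted p = 0.00550), and CG9743 rose by 1.64 (adjusted p = 0.00900). Another gene of that family, CG8630, chosen after its values were seen, rose by 1.76 (adjusted p = 0.0225), while Desat2, Fad2 and CG15531 had log2 changes of -0.24, 0.24 and -0.07 with adjusted p of 0.416, 0.712 and 0.822.

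In glycerolipid synthesis 3 of 11 genes rose and 2 fell, where 14.2% of all genes were called higher and 14.2% lower. With a replicate block or with only the dTIP60E431Q and control arrays fitted, 3 genes were called, where 2675 and 2754 of 18769 probe sets were. With any 1 array left out fewer than 5 were called, as fewer were over all probe sets. Lpin, which dephosphorylates phosphatidate, had intensities of 407 and 457 with dTIP60E431Q, 183 and 199 with dTIP60WT, and 197 and 196 in the control (log2 change 1.13, limma, adjusted p = 0.0103). CG1941, a relative of Dgat2, rose by 1.60 (adjusted p = 0.0106) and mino, a glycerol-3-phosphate acyltransferase, by 0.67 (adjusted p = 0.0225), while the acyltransferase gene Agpat3 fell by 0.95 (adjusted p = 0.0212). The other gene that fell, Gpdh1, outside the 4 smallest p and named to complete the count, makes glycerol-3-phosphate and changed by -0.89 (adjusted p = 0.0365). Dgat2, which catalyses the same step as mdy, had a log2 change of -0.28 (adjusted p = 0.258) and was likewise picked after its values were seen. Among 15 phospholipid genes 3 rose and 1 fell, or 26.7% called, against 28.4% of all genes. With any 1 array left out fewer of the 15 were called, as fewer were over all probe sets. The ethanolamine kinase gene easily shocked (eas) had 526 and 721 with dTIP60E431Q, 165 and 159 with dTIP60WT, and 176 and 184 in the control (log2 change 1.77, adjusted p = 0.00900). CG33116 rose by 1.22 (adjusted p = 0.00883) and the lysophospholipid acyltransferase gene oys by 0.92 (adjusted p = 0.0177), while the phosphatidylserine synthase gene Pss fell by 0.76 (adjusted p = 0.0279). Of 7 genes of fatty acid activation and uptake 2 rose and 1 fell, again beside 14.2% of all genes each way. Fatp2 rose by 1.52 (adjusted p = 0.0246) and the acyl-CoA synthetase gene pudgy (pdgy) by 1.15 (adjusted p = 0.0268). Acsl, a long chain acyl-CoA synthetase, had a log2 change of -0.56 (adjusted p = 0.0439). After median scaling this group had 2 higher and 3 lower, where 1547 of 18769 probe sets were called higher and 3172 lower. With a replicate block or only the dTIP60E431Q and control arrays fitted it had 0 calls, where 2675 and 2754 probe sets were called. Leaving out any 1 array also gave fewer calls, here and over all probe sets.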

How the data were processed

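Each of 6 larval pools was hybridized to 1 array. By the methods, the authors read the scans with GCOS software and then computed normalized model-based expression indexes in dChip, and the deposited linear intensity values were taken to be these indexes. Baseline array, probe model and versions are not given in the sources used here. Intensities were put on the log2 scale without a pseudocount. After 183 Affymetrix controls were left out, 18769 probe sets were fitted in limma 3.58.1 (R 4.3.3) with 1 mean per genotype over all 6 arrays, 3 residual degrees of freedom, eBayes moderation and Benjamini-Hochberg adjustment. Gene symbols came from the 2016 platform annotation, in which 13647 probe sets have 1 symbol, 402 have more than 1 and 4720 lack one. All 10 members matched the RefSeq gene table. List genes took the probe set with the highest mean. Named were all members, up to 4 called genes per list by smallest p, the fat body and oenocyte markers, and the 5 genes most like each synthase. Members and lists were chosen with earlier results of these data known. P-values measure the spread between 2 pools a genotype. Alternatives were a replicate block, a fit of 2 genotypes, trend and robust options, median scaling, quantile normalization, a floor and a pseudocount of 16. Others were a filter on dim probe sets, a 2-fold limit, a Welch t-test in place of the methods' t-test, and leaving out each array. The fit was also run on simulated data with 200 changed probe sets, far fewer than were called here, and with noise drawn from the fitted spread. That run does not show how reliable the present calls are. Plots used matplotlib 3.10.9.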

Additional observations from a re-analysis of the deposited data

How the results depend on the processing

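With duplicate arrays few degrees of freedom remain when an array is left out. In every comparison fewer probe sets were then called over the whole array too. With any 1 array left out fewer of the 10 genes were called with dTIP60E431Q against the control (3 with all arrays) and against dTIP60WT (2 with all arrays). Fewer of the lipid list genes were called against the control as well (30 with all arrays). In place of the methods' dChip t-test, a Welch t-test on the deposited intensities was run, without the methods' confidence bound on the fold change. With a fold above 2 it called 1 gene, FASN1, in each dTIP60E431Q comparison and 9 list genes, and after Benjamini-Hochberg 0, 0 and 0. The probe sets called by that test over the whole array were not counted, so these counts cannot be set against a share. With only the 4 arrays of a comparison fitted, 1 gene was called against dTIP60WT and 18 list genes against the control. Over all 18769 probe sets that fit called 3112 against dTIP60WT and 2754 against the control. On all 6 arrays a fold of at least 2 left 1 and 19, where 14.8% and 14.4% of all probe sets were called. Against dTIP60WT 4 of the 10 genes were called with median scaling or with trend and robust options, where 4823 and 5872 of 18769 probe sets were. A filter at the 40th percentile of mean level left 9 of the 10 genes, and 4 were called, where 5637 of 11261 probe sets were. The FASN1 minus FASN2 difference of log2 changes against the control was -0.86 after quantile normalization, against -1.31, and ran from -1.62 to -0.99 without 1 array.

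Labels number the pools of each genotype 1 and 2, and deviations of same-numbered pools correlated at -0.0073, -0.013 and -0.012 across probe sets. The labels do not say whether same-numbered pools were handled together, and correlations over all probe sets cannot settle it. With a replicate block 2 of the 10 genes were called against the control, 2 against dTIP60WT and 0 with dTIP60WT, and 20 list genes. Over all 18769 probe sets that block gave 2675 calls with dTIP60E431Q against the control and 2955 against dTIP60WT.

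The other values that changed sign had not passed the test. FASN2 was -0.21 and -0.15 against the control and -0.15 and -0.13 against dTIP60WT after median scaling and quantile normalization, SCAP -0.10 against the control after median scaling and -0.12 and -0.047 against dTIP60WT under both, SREBP -0.036 after median scaling and Desat1 0.036 after quantile normalization. With 1 array left out, log2 changes with dTIP60E431Q against the control ran from -0.22 to 0.26 for FASN2, -0.74 to 0.041 for ATPCL, -0.44 to 0.28 for AcCoAS and -0.21 to 0.47 for SCAP. Against dTIP60WT they ran from -0.18 to 0.31 for FASN2, -0.41 to 0.31 for AcCoAS, -0.24 to 0.43 for SCAP and -0.16 to 0.13 for mdy. With dTIP60WT against the control they ran from -0.13 to 0.018 for FASN1, -0.22 to 0.14 for FASN2, -0.25 to 0.0051 for ACC, -0.12 to 0.061 for AcCoAS, -0.0052 to 0.081 for SCAP and -0.24 to 0.045 for mdy. The cause of these changes was not tested. The low signal of ATPCL limits what can be read from it.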
